A study of Xenopus laevis with 9 samples.

Results

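The genes described here encode the contractile machinery of muscle and the proteins that move and buffer its calcium. They were taken by name, with no measured value in the rule, though the rule was chosen with earlier results of these data known. A probe set was a member when its platform gene symbol, without the homeolog ending, was one of 18 full names (acta1, actc1, ckm, des, ttn, neb, mb, ampd1, pygm, casq1, casq2, ryr1, srl, tcap, smyd1, unc45b, atp2a1 or atp2a2) or began with actn, myh, myl, mybpc, tnn, tpm, pvalb, ocm, myoz, pdlim, ldb3 or lmod. The non-muscle myosins myh9, myh10 and myh14 and names beginning with mylip were dropped. This gave 101 of the 15491 non-control probe sets. They stand for 69 of the 7531 genes named by the platform, with homeologs counted apart, or 53 with homeologs joined. Of the 18 full names, 11 had a member, and actc1, des, ttn, neb, mb, ampd1 and ryr1, like the stems pvalb and lmod, were not analysed here. One member, tpmt.L, is caught by the tpm stem but is named for thiopurine methyltransferase, an enzyme of drug metabolism.

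The arrays read tail RNA of Xenopus laevis tadpoles kept in water with T3 (3,5,3'-triiodothyronine, the active thyroid hormone) at 20 nM for 48 h, with T3 at 20 nM for 6 h, or with vehicle for 48 h. The labels give stage 54 (a second label field gives a range of stages that ends at 54), 2 animals to a 500 ml container and 20 C, and each of the 3 arrays of a group carried RNA pooled over 3 tails. Vehicle tails were collected at 48 h only, so the T3 6 h and vehicle tails differ both in hormone and in how long the animals had been in the container. Values are log2 intensities relative to the median of their array, and a value of 0 is that median.

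In striated muscle, myosin thick filaments pull on actin thin filaments, and the thin filaments are anchored at the Z-disc by alpha-actinin and its partners. Calcium released from the sarcoplasmic reticulum binds troponin C and moves tropomyosin off actin. Relaxation follows when the SERCA pumps (atp2a genes) return calcium to the reticulum, where calsequestrin stores it, and in fast fibres parvalbumin binds calcium in the cytosol. Much of the tadpole tail is fast swimming muscle, which is resorbed at metamorphosis under thyroid hormone. Many genes of Xenopus laevis exist in 2 copies from an ancient genome duplication. These homeologs end in .L and .S, and a probe set made for one can also bind the other.

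Across probe sets, arrays of the same group had correlations of 0.966 to 0.988. On the first principal component (47.2% of the variance) T3 48 h array 1 had a score of 15.2, apart from T3 48 h arrays 2 and 3 at 38.8 and 30.7, and the T3 6 h and vehicle arrays lay between -16.6 and -11.3. Member calls gained or lost without T3 48 h array 1 are named with the results. A probe set was tested when it exceeded its array median on at least 3 of the 9 arrays, which held for 8121 probe sets and 81 of the 101 members. A probe set was called at an adjusted p under 0.05.

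Few contractile and calcium-handling transcripts of the tail passed the threshold. At T3 48 h against vehicle, 2 of the 81 tested members were called, both higher, where 11.0% of all tested probe sets were called (4.94% higher and 6.05% lower). The 2 were pdlim4.L, a PDZ and LIM domain adaptor that binds alpha-actinin, and one probe set of atp2a2.S, the SERCA2 pump. At T3 6 h against vehicle 1 member was called, the parvalbumin family gene ocm4.3.S, which was higher (background 0.222%, with 0.172% higher and 0.0493% lower). At T3 48 h against T3 6 h, 7 members were called, 1 higher and 6 lower (background 19.4%, with 7.51% higher and 11.9% lower). In these bulk tissue pools, fewer cells of a type and less RNA per cell cannot be told apart.

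The 95% intervals bound the size of the member differences. Between T3 48 h and vehicle the median log2 difference was 0.05 over the 81 members (-0.03 with array weights) and -0.05 over all tested probe sets, and the median absolute difference was 0.13 and 0.23. The 95% interval of the difference lay within ±0.5 on the log2 scale (1.41-fold) for 40 members, which is 49.4% of them against 34.0% of all tested probe sets. It lay within ±1 (2-fold) for 68 members (84.0%, against 84.0% of all). These shares are not matched for brightness: 28 of the 81 members had a mean above log2 6, against 425 of the 8121 tested probe sets. Probe sets that bright had narrower intervals (median half-width 0.22 for the 425, against 0.35 for all tested). In the same comparison 9 members had an unadjusted p under 0.05, against 2450 of all 8121 tested probe sets. The latter is also the background for the unadjusted counts given below for T3 48 h against vehicle. For the counts of calls given below by role in that comparison, the background is the 11.0% called among all tested probe sets. In a role of few probe sets, 0 or 1 call is too few to set that role apart from this share. With T3 48 h array 1 left out, 8 members were called at T3 48 h against vehicle (background 23.5%), 1 at T3 6 h against vehicle (background 1.22%) and 9 at T3 48 h against T3 6 h (background 25.8%). The 8 were pdlim4.L, both atp2a2.S probe sets, smyd1.L, the dimmer atp2a1.S probe set, myoz2.L, myl6.S and pdlim1.S, a Z-disc adaptor with a log2 difference of 0.57 in that fit (adjusted p = 0.0487) and 0.42 with all arrays (adjusted p = 0.162). Between T3 48 h and T3 6 h, leaving out that array ended the call of tnnc1.S. It added 3 calls, atp2a1.S (log2 0.51, adjusted p = 0.0332), myl6.S (0.71, adjusted p = 0.0479) and the regulatory light chain myl12b.L (0.41, adjusted p = 0.0467). With T3 48 h array 3 left out, 2 members were again called at T3 48 h against vehicle, but neither was pdlim4.L or atp2a2.S.

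**Figure D1:**
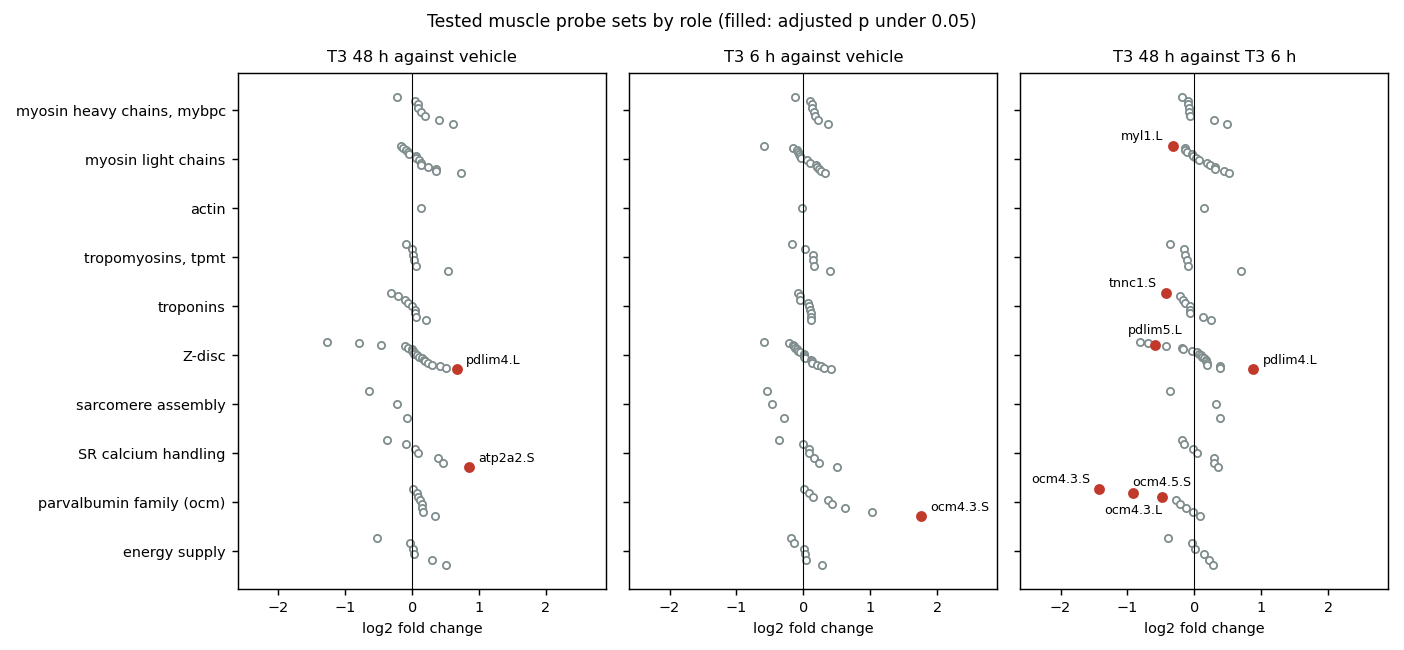
Log2 fold change of each of the 81 tested probe sets (horizontal axis), grouped by role (vertical axis), in 1 panel for each of the 3 comparisons; filled red points have an adjusted p under 0.05 and open points do not. Red points number 2 at T3 48 h against vehicle, 1 at T3 6 h against vehicle and 7 at T3 48 h against T3 6 h, where the lowest are the parvalbumin family genes ocm4.3.S (-1.43) and ocm4.3.L (-0.91).

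The bright members, those with a mean over 9 arrays above log2 6 (a level chosen after the values had been seen), numbered 28 probe sets. At T3 48 h against vehicle 0 of the 28 were called in limma and 0 had an unadjusted p under 0.05, and their log2 differences ran from -0.23 to 0.23. Among all 425 probe sets this bright, 4.24% were called and 77 had an unadjusted p under 0.05. The 95% interval stayed within ±0.5 for 25 of the 28 members (89.3%, against 75.5% of the 425) and within ±1 for all 28. At T3 6 h against vehicle 0 of the 28 and 0 of the 425 were called. There 9 of the 28 had an unadjusted p under 0.05, against 43 of the 425. Besides ocm probe sets these were myl1.L (log2 0.20 and 0.27), myl1.S (0.23), casq1.S (0.24) and a myh8.L probe set (0.37), all higher. Differences this small can depend on how arrays are scaled: the 6 h median over all tested members was 0.08, and 0.02 under quantile normalization. The interval at 6 h stayed within ±0.5 for 22 members (78.6%, against 84.0% of the 425). Near the top of the scale a difference may read smaller than it is: the highest value of an array lay between 9.73 and 9.97, and 11 members had a mean within log2 1 of the lower of these. How much that range compresses was not tested.

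**Figure D2:**
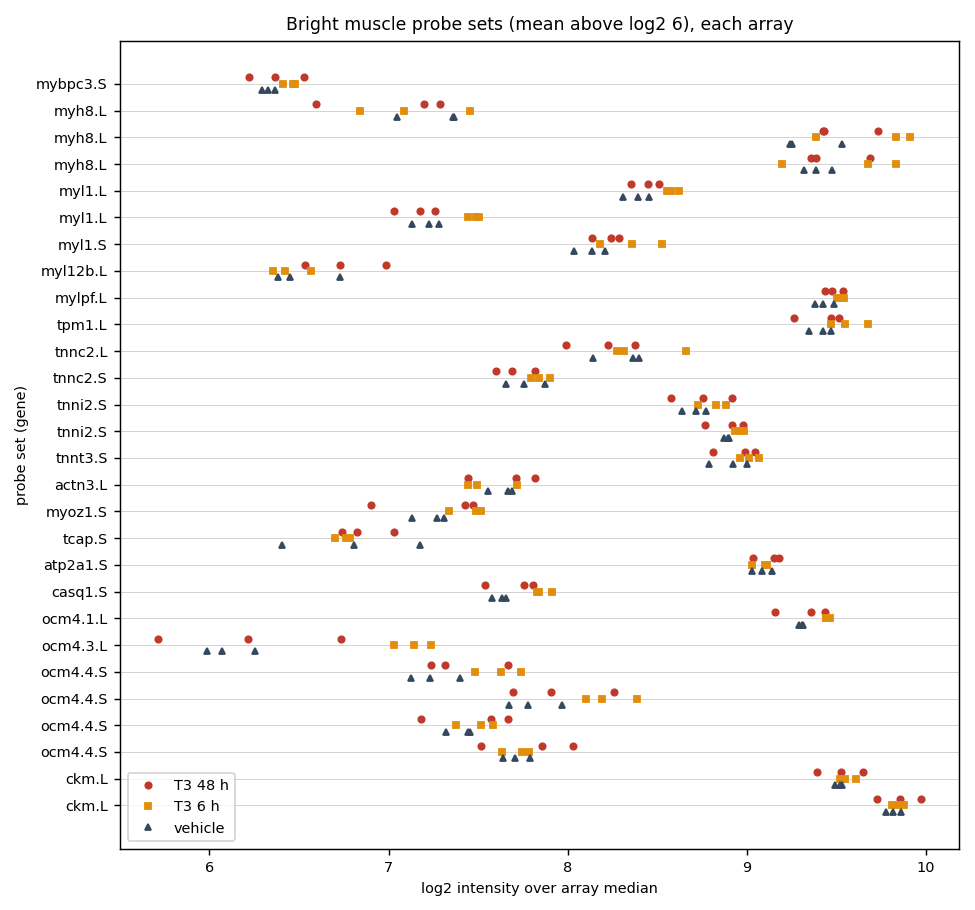
Log2 intensity over the array median (horizontal axis) of the 28 member probe sets with a mean above log2 6, 1 row per probe set and 1 point per array, for T3 48 h (circles), T3 6 h (squares) and vehicle (triangles). The groups overlap in most rows. The squares of ocm4.3.L, at 7.03 to 7.24, lie apart from its circles and triangles. By smaller margins the squares also lie above all circles and triangles for casq1.S, ocm4.1.L and both myl1.L rows. Rows are different probe sets, so their positions are not compared with each other.

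Among the thick filament genes, 8 of 14 probe sets were tested and 0 were called at T3 48 h against vehicle, with a median log2 difference of 0.11 and 0 at an unadjusted p under 0.05. The brightest was myh8.L, a sarcomeric myosin heavy chain, read by 3 probe sets. Its brightest probe set was at 9.42, 9.73 and 9.43 on T3 48 h arrays, 9.91, 9.38 and 9.83 on T3 6 h arrays and 9.53, 9.25 and 9.24 on vehicle arrays. The 3 groups overlapped, and the log2 difference at T3 48 h against vehicle was 0.19 (SE 0.14, 95% interval -0.12 to 0.50). The other probe sets of myh8.L had differences of 0.08 and -0.23. One of the 4 tested probe sets of myh6.S, another heavy chain, had a difference of 0.61 (adjusted p = 0.329), which was 1.14 without T3 48 h array 3 (adjusted p = 0.0454). That probe set had a mean of -0.06 and exceeded the array median on only 3 of the 9 arrays. All of these were T3 arrays, so it met the filter through them. The other tested myh6.S probe sets had differences of 0.08, 0.13 and 0.40. The myosin-binding protein mybpc3.S was at 6.53, 6.37 and 6.22 at T3 48 h and at 6.29, 6.37 and 6.33 in vehicle, a difference of 0.04 (interval -0.16 to 0.25).

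Of the 22 myosin light chain probe sets, 14 were tested and 0 were called at T3 48 h against vehicle. The fast regulatory light chain mylpf.L was at 9.48, 9.54 and 9.44 at T3 48 h, 9.50, 9.53 and 9.54 at T3 6 h and 9.48, 9.42 and 9.38 in vehicle, and its difference at 48 h was 0.05 (interval -0.05 to 0.16). The fast essential light chain myl1 had differences of 0.05 for the brightest probe set of myl1.L and 0.10 for myl1.S. The only light chain with an unadjusted p under 0.05 was myl6.S, the essential light chain of smooth muscle and non-muscle myosin. It was at 5.28, 5.47 and 6.23 at T3 48 h, 5.04, 5.33 and 5.03 at T3 6 h and 4.68 to 5.22 in vehicle. Its T3 48 h arrays were all above its vehicle arrays, with a log2 difference of 0.72 (SE 0.23, adjusted p = 0.0699), and without T3 48 h array 1 the difference was 0.91 (adjusted p = 0.0221).

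The thin filament gave 0 calls in limma at T3 48 h against vehicle. The 1 actin probe set tested had a log2 difference of 0.12, the median was 0.02 over 6 tropomyosin-stem probe sets and -0.0024 over 9 troponin probe sets, and 1 troponin had an unadjusted p under 0.05. Skeletal actin acta1.S was at 4.55, 4.41 and 3.87 at T3 48 h and 4.02, 4.22 and 4.23 in vehicle, with overlap. Tropomyosin tpm1.L was at 9.51, 9.47 and 9.27 at T3 48 h, 9.68, 9.47 and 9.55 at T3 6 h and 9.42, 9.35 and 9.47 in vehicle. Its difference at 48 h was 0.0024 (interval -0.16 to 0.17). Fast troponin T, tnnt3.S, which ties the troponin complex to tropomyosin, had a difference of 0.04 (interval -0.12 to 0.21) and was at 8.99, 9.04 and 8.81 at T3 48 h and 8.92, 9.0 and 8.79 in vehicle. Fast troponin I, tnni2.S, had differences of 0.04 and -0.0024 in its 2 probe sets, and fast troponin C had -0.10 for tnnc2.L and -0.06 for tnnc2.S. The most negative troponin difference was that of slow troponin C, tnnc1.S, at -0.32 (adjusted p = 0.144). The most positive tropomyosin difference was that of tpm2.S, at 0.53 (adjusted p = 0.167).

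The Z-disc role held 21 probe sets, 19 of them tested, and 1 was called at T3 48 h against vehicle. This was pdlim4.L, at 2.57, 2.73 and 2.79 at T3 48 h, 1.62, 1.61 and 2.21 at T3 6 h and 2.03, 2.13 and 1.94 in vehicle. Every T3 48 h array was above every array of the other groups, and the change was 1.58-fold (log2 0.66, SE 0.17, n = 3 in each group, adjusted p = 0.0353). The call was lost in 5 of the 9 fits that left out 1 array, with an adjusted p of up to 0.106 when T3 48 h array 2 or 3 or any 1 vehicle array was left out, while the log2 change stayed between 0.61 and 0.72. It was also lost without the filter.

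Fast alpha-actinin, actn3.L, the brightest Z-disc probe set, was at 7.71, 7.82 and 7.44 at T3 48 h and 7.67, 7.55 and 7.69 in vehicle, a difference of 0.02 (interval -0.22 to 0.26). Telethonin, tcap.S, which caps titin, and calsarcin-2, myoz1.S, a Z-disc protein of fast fibres, had differences of 0.07 and 0.03. The most negative differences of any tested member belonged to myoz2, which in mammals is the calsarcin of slow and cardiac fibres and which is named here after its values were seen. myoz2.L was at 3.37, 1.65 and 2.81 at T3 48 h, 3.22, 3.62 and 3.05 at T3 6 h and 4.28, 3.38 and 3.99 in vehicle. All its T3 48 h values were below its vehicle values, with a log2 difference of -1.27 (SE 0.39, interval -2.13 to -0.42, adjusted p = 0.0596), and the difference was -1.66 without T3 48 h array 1 (adjusted p = 0.0116). Its homeolog myoz2.S was at 0.42, 0.46 and 0.56 at T3 48 h and 1.32, 0.59 and 1.91 in vehicle (log2 -0.79, adjusted p = 0.105), and the difference was -1.14 without vehicle array 2 (adjusted p = 0.0375).

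The sarcomere assembly factors had 3 probe sets, 3 tested and 0 called at T3 48 h against vehicle, with 1 at an unadjusted p under 0.05. smyd1.L, a methyltransferase needed for myofibril assembly, was at 4.22, 3.10 and 3.56 at T3 48 h, 4.0, 3.98 and 4.0 at T3 6 h and 4.50, 3.81 and 4.51 in vehicle. The groups overlapped through T3 48 h array 1 and vehicle array 2, with a log2 difference of -0.64 (SE 0.27, adjusted p = 0.139), which was -0.94 without T3 48 h array 1 (adjusted p = 0.0177). The myosin chaperone unc45b.S had differences of -0.08 and -0.22 in its 2 probe sets.

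Calcium uptake and storage had 7 probe sets, all tested, and 1 was called at T3 48 h against vehicle. SERCA1, atp2a1.S, the pump of fast fibres, was at 9.15, 9.18 and 9.03 at T3 48 h, 9.10, 9.03 and 9.11 at T3 6 h and 9.14, 9.09 and 9.03 in vehicle on its brighter probe set. The groups overlapped, with a difference of 0.04 (interval -0.09 to 0.16). SERCA2, atp2a2.S, the pump of slow and cardiac fibres and of many non-muscle cells, had 2 probe sets that differed in call. The called, dimmer one was at 2.40, 2.33 and 2.74 at T3 48 h, 2.07, 1.88 and 2.48 at T3 6 h and 1.82, 1.45 and 1.66 in vehicle. All its T3 48 h values were above all its vehicle values, and it was 1.80-fold higher (log2 0.85, SE 0.18, n = 3 in each group, adjusted p = 0.0204). The call was lost when T3 48 h array 3, vehicle array 2 or vehicle array 3 was left out, with an adjusted p of up to 0.0735 and log2 changes between 0.72 and 0.93 over the 9 such fits.

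The other, brighter atp2a2.S probe set was at 3.37, 4.20 and 3.72 at T3 48 h and 3.32, 3.21 and 3.38 in vehicle. T3 48 h array 1 lay among its vehicle values, and the difference was 0.46 (SE 0.21, adjusted p = 0.167). Without that array it was 0.66 (adjusted p = 0.0373). The dimmer probe set of atp2a1.S, at 4.10, 4.90 and 4.54 at T3 48 h and 4.20, 3.96 and 4.21 in vehicle, gave 0.39 (adjusted p = 0.191), and 0.59 without T3 48 h array 1 (adjusted p = 0.0211), while the bright one gave 0.04. The difference between the 2 probe sets of a gene was not tested.

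Among the calcium stores 0 probe sets were called in limma at T3 48 h against vehicle, and 0 had an unadjusted p under 0.05. Calsequestrin 1, casq1.S, the store of fast fibres, was at 7.76, 7.81 and 7.54 at T3 48 h, 7.83, 7.84 and 7.92 at T3 6 h and 7.58, 7.63 and 7.65 in vehicle (48 h difference 0.08, interval -0.09 to 0.26). Calsequestrin 2, casq2.S, the cardiac and slow form in mammals, was at 3.68, 3.04 and 3.46 at T3 48 h and 3.98, 3.80 and 3.56 in vehicle (-0.38, adjusted p = 0.219). Sarcalumenin, srl.L, a calcium-binding protein of the reticulum, had a difference of -0.10 (interval -0.43 to 0.23).

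**Figure D3:**
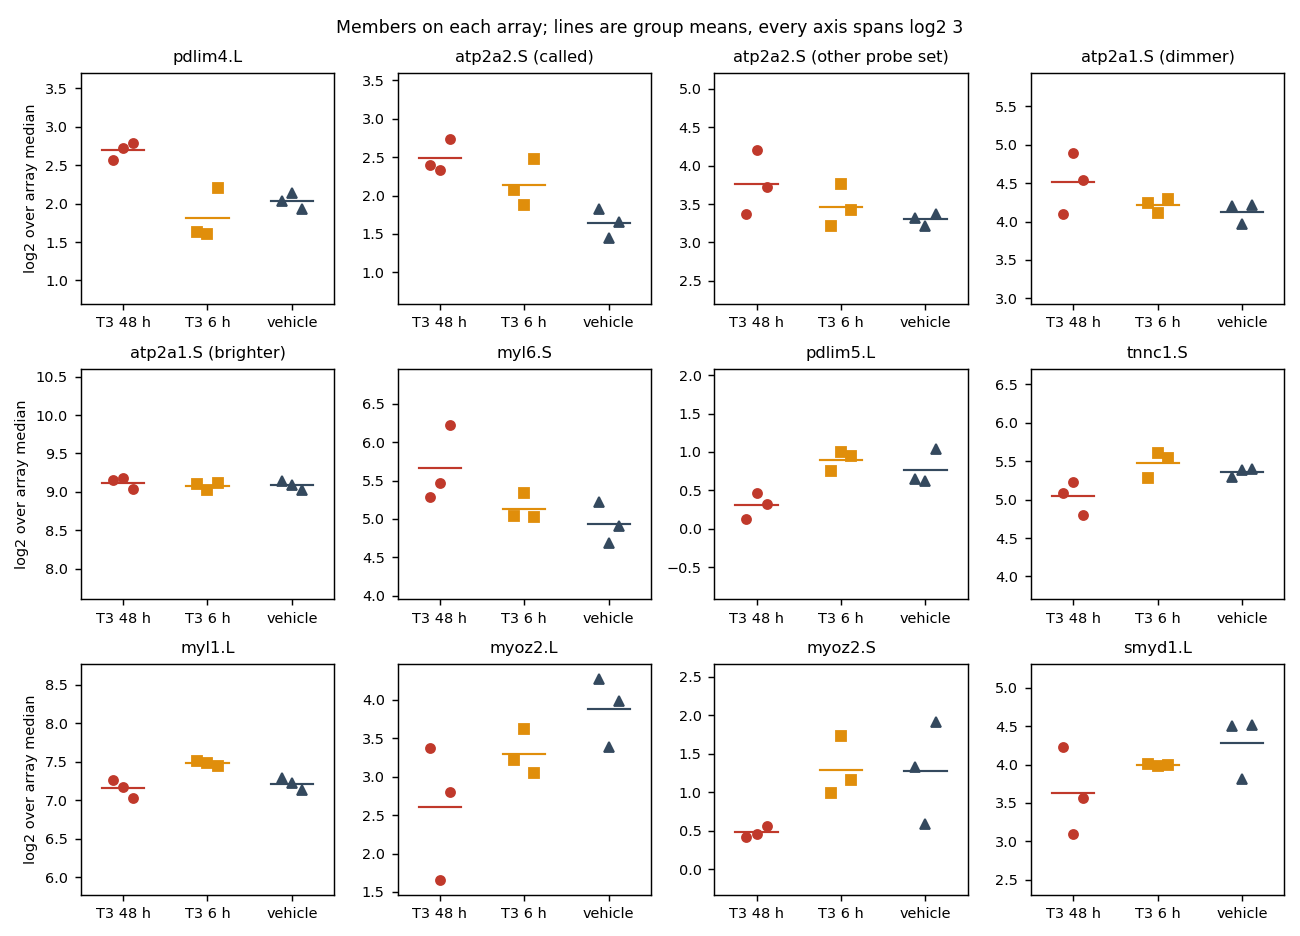
Log2 intensity over the array median (vertical axes, each spanning log2 3) of 12 member probe sets on every array, for T3 48 h, T3 6 h and vehicle, with a line at each group mean. pdlim4.L and the called atp2a2.S probe set have all T3 48 h points above all vehicle points, the brighter atp2a1.S probe set lies between 9.03 and 9.18, and myoz2.L, myoz2.S and smyd1.L have their T3 48 h mean lowest.

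The parvalbumin family gave the only member call at 6 h. Its 8 probe sets read ocm4.1.L, ocm4.3.L, ocm4.3.S, ocm4.4.S and ocm4.5.S, where ocm stands for oncomodulin, a close relative of muscle parvalbumin. In the order of RefSeq genes, 12 ocm genes stand next to each other on chromosome 9_10L and 8 on chromosome 9_10S, with 0 genes of other names between them. Probe sets of neighbours so alike can share signal, and how far they do was not tested.

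ocm4.3.S was at 3.46, 4.20 and 4.07 at T3 48 h, 5.41, 4.95 and 5.65 at T3 6 h and 3.37, 3.29 and 4.07 in vehicle. All T3 6 h values were above all values of the other groups, and the gene was 3.39-fold higher at T3 6 h than in vehicle (log2 1.76, SE 0.26, n = 3 in each group, adjusted p = 0.0432). This call was kept in 3 of the 9 fits that left out 1 array (adjusted p up to 0.200): it was lost without T3 48 h array 2 or 3, T3 6 h array 1 or 3 or vehicle array 1 or 2, with log2 changes between 1.60 and 2.01 throughout.

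Its homeolog ocm4.3.L was at 6.22, 6.73 and 5.72 at T3 48 h, 7.03, 7.14 and 7.24 at T3 6 h and 6.07, 5.99 and 6.25 in vehicle. The T3 6 h arrays were again highest, with a difference of 1.03 against vehicle (SE 0.21, interval 0.58 to 1.49) that missed the threshold (adjusted p = 0.0723). ocm4.5.S was at 3.33, 3.38 and 3.11 at T3 48 h, 3.69, 3.84 and 3.74 at T3 6 h and 3.24, 3.0 and 3.15 in vehicle, a 6 h difference of 0.62 (SE 0.13, adjusted p = 0.0731). Here too the T3 6 h values did not overlap those of either other group.

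The 4 ocm4.4.S probe sets had 6 h differences of 0.36, 0.42, 0.09 and 0.01 (lowest adjusted p = 0.190). The bright ocm4.1.L was at 9.36, 9.44 and 9.16 at T3 48 h, 9.44, 9.44 and 9.46 at T3 6 h and 9.30, 9.31 and 9.29 in vehicle, a 6 h difference of 0.14 (interval 0.00 to 0.29, adjusted p = 0.317). At T3 6 h against vehicle all 8 differences were above 0 with a median of 0.39. An unadjusted p under 0.05 was found for 6 of the 8 (1269 of all 8121 tested probe sets). Of the same 8, 0 were called in limma at T3 48 h against vehicle, 0 had an unadjusted p under 0.05, and the median was 0.13.

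**Figure D4:**
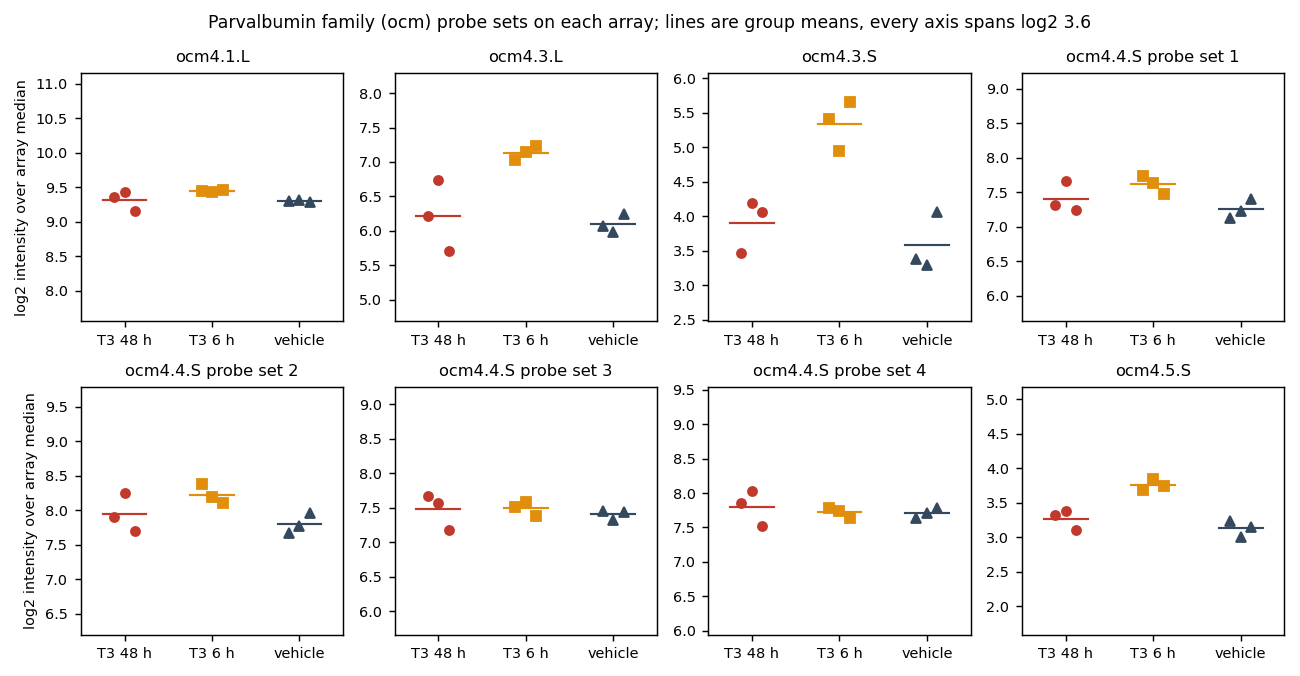
Log2 intensity over the array median (vertical axes, each spanning log2 3.6) of the 8 parvalbumin family probe sets on every array, for T3 48 h, T3 6 h and vehicle, with a line at each group mean. The T3 6 h points of ocm4.3.S (4.95 to 5.65), ocm4.3.L (7.03 to 7.24) and ocm4.5.S (3.69 to 3.84) lie above all other points of their panel. Those of ocm4.1.L, at 9.44 to 9.46, do so too, but only by a narrow margin.

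T3 48 h against T3 6 h shares its T3 6 h arrays with the comparison just given, so the values of ocm genes in both are not independent. ocm4.3.S, ocm4.3.L and ocm4.5.S were lower at T3 48 h than at T3 6 h by log2 -1.43 (adjusted p = 0.00604), -0.91 (adjusted p = 0.0135) and -0.49 (adjusted p = 0.0253). The ocm4.3.L call was lost without T3 6 h array 3 (adjusted p = 0.0523), and the ocm4.5.S call without T3 48 h array 3 or any 1 T3 6 h array (adjusted p up to 0.0890). With the compared groups alone the ocm4.5.S call was lost too. pdlim4.L was higher by 0.88 (SE 0.17, adjusted p = 0.00686), and with ocm4.3.S it kept its call in all 17 alternatives.

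The other 3 calls were in pdlim5.L, myl1.L and tnnc1.S. pdlim5.L, another alpha-actinin binding adaptor, was at 0.13, 0.46 and 0.33 at T3 48 h, 0.75, 0.99 and 0.95 at T3 6 h and 0.64, 0.62 and 1.04 in vehicle, and it fell by 0.59 against T3 6 h (SE 0.15, adjusted p = 0.0249). One of 3 myl1.L probe sets, at 7.26, 7.17 and 7.03 at T3 48 h, 7.51, 7.49 and 7.44 at T3 6 h and 7.28, 7.23 and 7.13 in vehicle, fell by 0.33 (SE 0.08, adjusted p = 0.0192). The others had differences of -0.15 (adjusted p = 0.128) and, on a probe set near the array median, -0.02. Slow troponin C, tnnc1.S, was at 5.09, 5.23 and 4.80 at T3 48 h, 5.28, 5.60 and 5.54 at T3 6 h and 5.29, 5.39 and 5.40 in vehicle, and fell by 0.43 (SE 0.13, adjusted p = 0.0471). Its call was kept in 4 of 17 alternatives. pdlim5.L lost its call without T3 48 h array 3 or T3 6 h array 2 or 3 (adjusted p up to 0.0814), and myl1.L without T3 48 h array 3 or T3 6 h array 1 or 3 (up to 0.0708). The myl1.L call was also lost under quantile normalization, with centring on the tested probe sets and without the intensity trend, and was kept in 11 of 17 alternatives. Calls against T3 6 h were gained by a probe set of ocm4.4.S without T3 48 h array 2 (-0.43, adjusted p = 0.0421). Single probe sets of myh6.S (1.01, adjusted p = 0.0328) and ckm.L (-0.75, adjusted p = 0.0448) gained them without T3 48 h array 3. The myh6.S probe set was the one near the array median described above. Calls were also gained by myoz2.S without vehicle array 2 or 3 (-0.81, adjusted p = 0.0318 and 0.0427) and by tpm2.S without vehicle array 3 (0.70, adjusted p = 0.0254).

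Energy supply had 6 probe sets, 6 tested and 0 called at T3 48 h against vehicle, with 0 at an unadjusted p under 0.05. The muscle creatine kinase ckm.L, which buffers ATP, was at 9.85, 9.97 and 9.73 at T3 48 h, 9.84, 9.81 and 9.88 at T3 6 h and 9.82, 9.86 and 9.78 in vehicle on its brightest probe set. The groups overlapped and the difference was 0.03 (interval -0.10 to 0.16). A dimmer ckm.L probe set, at 2.66, 2.86 and 3.84 at T3 48 h and 4.04, 3.30 and 3.62 in vehicle, had a difference of -0.53 with an interval of -1.16 to 0.09. T3 48 h array 3 lay among its vehicle values, and without that array the difference was -0.89 (adjusted p = 0.0499). The muscle glycogen phosphorylases pygm.L and pygm.S had differences of -0.03 to 0.51.

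Of the 101 members, 75 exceeded the array median on all 9 arrays and 20 were below it on all 9. The 20 untested members included the heart-type troponins tnni3.L, tnni3.S and tnnt2.L, all 6 probe sets of the atrial light chain mylc2a, all 3 of myh15.L, the ventricular light chain myl3.S and the smooth muscle heavy chain myh11.S. Fitted without the filter, 0 of the 20 were called in any comparison in limma and 0 had an unadjusted p under 0.05 (background without the filter 0.0129% at T3 6 h against vehicle, 3.91% at T3 48 h against vehicle and 8.54% between the T3 times). Their log2 differences at T3 48 h against vehicle ran from -0.19 to 0.16. For probe sets this dim such differences depend on the background correction. The heart markers nppa, nppb, nkx2-5, gata4, tbx5, tbx20 and hand2 were below the array median on every array in all 12 probe sets. The heart list also named myh6, which is a member and is not among these 12. Its myh6.S probe sets with means of 1.80 and 1.47 exceeded the median on all 9 arrays, and its others had means of -1.24 to -0.06. Not every transcript named for heart was thus below the median, and casq2.S had a mean of 3.53.

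Isoforms that other cells also use (actn1, actn4, tpm3, tpm4, myl6, myl9, myl12b, myh11, pdlim1, pdlim2, pdlim5 and atp2a2) made up 25 members, 20 tested. Of the 20, 1 was called at T3 48 h against vehicle, atp2a2.S, with a median of 0.21, and 1 of the other 61 was called, pdlim4.L, with a median of 0.04. Among all tested probe sets 11.0% were called in that comparison. A test between these classes was not made. The list was drawn up by gene name and holds pdlim1, pdlim2 and pdlim5 but not pdlim4. Being off the list does not make pdlim4.L particular to striated muscle.

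Markers of other cell types of the tail also moved at T3 48 h, and their part in the member values was not tested. At T3 48 h against vehicle 11.0% of all tested probe sets were called. Epidermis markers had 1 called higher and 17 lower of 29 tested, and their summed intensity (in array medians) was 307 to 461 at T3 48 h, 747 to 1000 at T3 6 h and 730 to 829 in vehicle. Among the lowest in adjusted p were krt12.4.L (log2 -3.15), krt78.6.L (3.51), pkp3.S (-1.16) and upk3a.L (-1.25), each lost in 0 of the 9 fits that left out 1 array. Other epidermis calls were lost in up to 7 of these fits. Notochord and cartilage markers had 4 called lower of 5, at sums of 9.05 to 23.4 at T3 48 h, 36.1 to 40.7 at T3 6 h and 26.1 to 40.8 in vehicle, with tbxt.S, shh.L and matn1.L below the array median throughout. The 4 were col9a1.L (-1.86), col2a1.S (-1.76), col9a1-b (-1.54) and cnmd.L (-1.28). Each of these calls was lost in 4 to 8 of the 9 fits that left out 1 array. Among erythroid (6 tested), leukocyte (7), fibroblast (7) and smooth muscle (4) markers, 0 were called against vehicle at either time. At T3 48 h 2, 1, 0 and 2 of them had an unadjusted p under 0.05, and at T3 6 h 4, 0, 3 and 2. Over all 8121 tested probe sets these counts were 2450 and 1269. All 7 fibroblast differences at T3 6 h were below 0 (-0.68 to -0.27, median -0.35). At T3 48 h against T3 6 h, where 19.4% of all tested probe sets were called, fibroblast pdgfra.L was called higher on 2 probe sets (log2 0.70 and 0.56). In smooth muscle, tagln.L was called higher (0.73) and smtn.L lower (-0.86). The smtn.L call was lost in 0 of the 9 fits that left out 1 array, and the others in 3 to 6. Without T3 48 h array 1, leukocyte cd74.L (log2 -1.17) and smooth muscle acta2.L (-0.80) were called lower and smooth muscle tagln.L higher (0.54) at T3 48 h against vehicle. In that fit erythroid hba3.L was called higher (1.07) at T3 6 h against vehicle. Without T3 48 h array 2, leukocyte mpo.L was called higher (2.18) at T3 48 h against vehicle. With all arrays the 7 leukocyte differences in that comparison had a median of 0.21, and 2 were below 0. The erythroid sum was 356 to 615, 450 to 798 and 336 to 405 (median log2 difference 1.0 at T3 6 h against vehicle). Skeletal muscle markers outside the member list had 0 of 12 called at T3 48 h against vehicle (1 at an unadjusted p under 0.05), all 12 differences below 0 (-0.62 to -0.02, median -0.15; median -0.25 at T3 6 h against vehicle), and sums of 391 to 454, 385 to 543 and 428 to 537, with myog.L below the array median. One of them, the myogenic factor myod1.S, was at 2.05, 1.73 and 1.74 at T3 6 h and at 3.44, 3.41 and 2.82 in vehicle, 2.61-fold lower (log2 -1.38, adjusted p = 0.0432), a call that was lost in 7 of the 9 fits that left out 1 array (adjusted p up to 0.200). At T3 48 h myod1.S was at 3.06, 2.78 and 2.75. It was called higher there than at T3 6 h (log2 1.02, adjusted p = 0.0058 in limma), and this call was lost in 0 of the 9 fits.

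Partner genes of the same machinery outside the rule gave 0 calls in limma at T3 48 h against vehicle, where 11.0% of all tested probe sets were called. The counts were 0 of 29 for the triad and calcium channels, 0 of 10 for the membrane skeleton and neuromuscular junction, 0 of 22 for sarcomere partners and 0 of 11 for muscle glycolytic isoforms, with medians of -0.14, 0.07, -0.09 and -0.05 and unadjusted p under 0.05 in 0, 2, 3 and 1 of them. Without T3 48 h array 1 the calls numbered 1, 0, 3 and 1, all lower, where 23.5% of all tested probe sets were called. The single atrophy ligase probe set, fbxo30.L, was below the array median on all arrays. Against vehicle at T3 6 h, 0 probe sets of these lists were called in limma (0.222% of all tested probe sets). There 4, 2, 4 and 1 had an unadjusted p under 0.05 (1269 of all 8121 tested probe sets). The Z-disc protein csrp3.L was called higher at T3 6 h against vehicle (0.66) without T3 48 h array 1. At T3 48 h against T3 6 h the calcium channel subunit cacng1.L was higher (log2 0.83, adjusted p = 0.0372), 4 probe sets of the calcium-dependent kinase camk2g.S were lower (log2 -0.59 to -0.53), the caveolar protein cavin4.S was higher (0.72) and csrp3.L was lower (-0.92). The cacng1.L call was lost in 5 of the 9 fits that left out 1 array, among them the one without T3 48 h array 1 (log2 0.64, adjusted p = 0.0821), and 3 of the 4 camk2g.S calls were lost in 5 to 8 of them. Without T3 48 h array 1 the lower calls in the triad list numbered 7, against 4 with all arrays, and all 7 were probe sets of the 1 gene camk2g.S. Among sarcomere partners they numbered 4, against 1. Over all tested probe sets, calls in either direction at T3 48 h against T3 6 h were 25.8% in that fit and 19.4% with all arrays.

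Both homeologs of a gene could be compared for 14 member pairs. The response at T3 48 h against vehicle differed between .L and .S in 0 of the 14 in limma, where 4.02% of all 572 pairs did, and 2 had an unadjusted p under 0.05. These were pdlim5, at -0.46 for .L and 0.24 for .S (difference -0.70, interval -1.20 to -0.20, adjusted p = 0.123), and actn1, at -0.06 and 0.29 (difference -0.35, interval -0.67 to -0.04, adjusted p = 0.197). For the bright pairs myl1 and tnnc2 the differences were -0.04 (interval -0.29 to 0.20) and -0.05 (interval -0.36 to 0.27).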

How the data were processed

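RNA of 9 pools of 3 tails was read on Affymetrix arrays. The deposited values are linear intensities made by the authors with GCRMA, per the submitters' processing notes (version not given in the sources used here), and every array has a median of 1. Log2 was taken here. Of 15491 non-control probe sets, 9304 carried 1 gene symbol, 195 several and 5992 none in the platform annotation, and 9227 matched RefSeq (Xenopus_laevis_v10.1, used for names and gene order). Multi-gene probe sets were not named, among them 3 that touch the rule. limma 3.58.1 (R 4.3.3) was fitted to all 9 arrays with group as the only factor, eBayes with an intensity trend, two-sided, Benjamini-Hochberg over 8121 probe sets or, for homeologs, 572 pairs (brightest .L minus brightest .S). The procedure was tested on simulated data.

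No source says whether the pools had separate clutches or exposures. The p-values measure only the spread between these pools, and 3 arrays a group limit the precision. Named members are those called in any comparison, the brightest of each role, all ocm and calcium uptake and storage probe sets, and genes whose probe sets differ in call; others were named after their values were seen. Listed non-members are named when called, at most 4 per list. Members and lists were chosen with earlier results of these data known. The 17 alternatives varied filter, normalization, replicate block, array weights, trend and the arrays used.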

Additional observations from a re-analysis of the deposited data

Results flagged for a closer look

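In 7 members the values differed between the T3 times by the test of T3 48 h against T3 6 h (19.4% of all tested probe sets passed it). Both T3 groups were set against one set of vehicle arrays, collected at 48 h, so the test also compares their differences from vehicle. Higher at T3 48 h was pdlim4.L (log2 0.88). Lower at T3 48 h were ocm4.3.S (-1.43), ocm4.3.L (-0.91), pdlim5.L (-0.59), ocm4.5.S (-0.49), tnnc1.S (-0.43) and a probe set of myl1.L (-0.33). Of the 7, pdlim4.L was called against vehicle at T3 48 h and ocm4.3.S at T3 6 h, and the others at neither time. The tnnc1.S call was kept in 4 of 17 alternatives. Length of exposure and time since the animals entered the container cannot be told apart here.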

How the results depend on the processing

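The count of called members at T3 48 h against vehicle, 2, became 1 without a filter, 8 with array weights and 0 to 8 when 1 array was left out. Leaving out T3 48 h array 1 gave 8, T3 48 h array 2 or vehicle array 1 gave 1 (atp2a2.S), and vehicle array 3 gave 0. Without vehicle array 2 the 1 call was myoz2.S, lower. Without T3 48 h array 3 the 2 calls were myh6.S (a probe set near the array median), higher, and ckm.L (a dimmer probe set), lower. In either fit 0 of the original calls remained. At T3 6 h against vehicle, 1 call became 0 without a filter, under quantile normalization and with the replicate block, 4 with array weights, 2 with the compared groups alone, and 0 to 1 when 1 array was left out. At T3 48 h against T3 6 h, 7 calls became 17 with array weights and 2 to 9 when 1 array was left out (4 without T3 6 h array 2 and 2 without T3 6 h array 3). In that comparison the members' median of -0.03 became -0.11 with array weights and -0.07 without T3 48 h array 1. It became 0.04 under quantile normalization and 0.03 with centring on the tested probe sets or without T3 48 h array 3. Between T3 48 h and vehicle the members' median of 0.05 became -0.03 with array weights and 0.12 without T3 48 h array 3. Between T3 6 h and vehicle their median of 0.08 became 0.02 under quantile normalization and 0.06 with centring on the tested probe sets. The count of homeolog pairs stayed at 0 in these alternatives. The causes of these shifts were not tested. The share of all probe sets called moved between fits too. At T3 48 h against vehicle it was 11.0% in the main fit, 3.91% without a filter and 23.5% without T3 48 h array 1. At T3 6 h against vehicle it was 0.222%, 0.0129% and 1.22%, and at T3 48 h against T3 6 h 19.4%, 8.54% and 25.8%. For the other alternatives that share is not given here, so their member counts cannot be read against it. With the replicate number as a block the counts of calls were 2, 0, 6 and 0 pairs. Arrays of the same number deviated from their group means with correlations of -0.13 to 0.10, and arrays of different number with -0.18 to 0.15. No pairing by number was seen, but with 3 arrays a group this check cannot exclude a weak one. Of 4098 gene values under alternatives, 46 lost and 40 gained a call, 229 uncalled values moved and 3783 kept direction and side of the threshold. Signal limits what can be seen: 20 members were too dim to test. Members with a mean above log2 6 had narrower intervals than the tested members as a whole (median half-width 0.20 against 0.35).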

Other observations

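The ventricular light chain myl3.L stood out on single arrays rather than by group: it was at 1.52 on T3 48 h array 1 and 1.75 on vehicle array 2, and between -0.49 and 0.07 on the other 7 arrays. Its dimmer homeolog myl3.S had its highest values on the same arrays, at -0.78 and -0.13, against -1.45 to -1.20 elsewhere. The myosin heavy chain myh6.S was at -0.94, -0.76, 0.92 and 1.07 on T3 48 h array 3 in its 4 tested probe sets, each the lowest of the T3 48 h arrays.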
